A study of Mus musculus with 30 samples.

Results

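Gene expression of F4/80-positive cells from the spleen was compared with that of F4/80-positive cells from the bone marrow in mice that lacked Mif and had no leukaemia. The arrays were taken by their titles, 3 titled KO-nl-SP (spleen) and 3 titled KO-nl-BM (marrow), 6 of the 30 arrays of the series, and all 11937 detected genes were tested. The spleen and the marrow group share everything else that the labels give: strain C57BL/6, genotype TCL1+/wt Mif-/-, an age of 10 to 15 months and no leukaemia. The Eµ-TCL1 transgene, which drives the human TCL1 oncogene in B cells and leads to a leukaemia like human chronic lymphocytic leukaemia, is therefore carried by every mouse of this comparison. The counterparts with Mif were 3 WT-nl-SP and 3 WT-nl-BM arrays, of genotype TCL1+/wt Mif+/+ and otherwise labelled alike. Cells were sorted on F4/80 and lysed in Trizol. Nothing in the labels ties an array to an animal, and the p-values cover only the spread between arrays, which may in part be technical.

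F4/80, the product of Adgre1, is a surface receptor of mature mouse macrophages. In the spleen it marks the macrophages of the red pulp, which engulf aged red blood cells, take the iron out of haem and return it to the blood, and which depend on the transcription factor Spi-C. In the marrow F4/80 marks, among others, the macrophages at the centre of erythroblastic islands, which hold maturing red cell precursors on their surface and engulf the nuclei these expel. F4/80 is also present on monocytes and, at lower levels, on eosinophils. Mif encodes a cytokine that signals through Cd74 together with Cd44. In sorted bulk RNA, fewer cells of a type and less RNA per cell cannot be told apart.

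The knockout was visible on all 6 arrays. Mif read 5.02, 4.51 and 4.39 in knockout spleen and 4.28, 4.18 and 4.35 in knockout marrow (normalised log2 intensity, as all levels below), against 11.23 ± 0.95 (SD, n = 3) in wild-type spleen and 10.99 ± 0.47 in wild-type marrow. It was detected on 2 of 3 knockout spleen arrays and on no knockout marrow array. Adgre1, the gene of the sort marker, read 9.64, 9.84 and 9.56 in knockout spleen and 8.16, 8.42 and 9.29 in knockout marrow. The groups did not overlap, and the difference of +1.05 on the log2 scale (95% interval -0.07 to 2.18) did not pass the test (limma adjusted p = 0.497). Csf1r, the receptor for the main macrophage growth factor, read 10.85, 10.58 and 10.48 in spleen, against 8.9, 9.81 and 9.39 in marrow, again without overlap. Of 22 measured pan-macrophage genes 20 read higher in spleen, with a median of +0.58 (0.31 without KO-nl-BM replicate 1), and all 22 were detected. Their summed intensity was 64454 to 79511 per spleen array and 56986 to 62534 per marrow array. The 2 genes lower in spleen included Cd63 (-2.91). Macrophage genes were thus detected in both tissues, beside genes of other cells. Erythroid genes summed to 2531 to 73137 per spleen array and 50253 to 74856 per marrow array. Later neutrophil granule genes summed to 10378 to 37032 in spleen and 31867 to 112367 in marrow. The purity of the sort was not tested.

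One spleen array stood apart. KO-nl-SP replicate 6 correlated at 0.979 across genes with KO-nl-BM replicate 2, and at 0.955 and 0.942 with the other spleen arrays, while replicates 4 and 5 of the spleen correlated at 0.971. On the first principal component of the 6 arrays (48.7% of the variance), replicates 4 and 5 scored -33.9 and -48.6, replicate 6 scored 3.2, and the marrow arrays scored 11.7 to 46.7. Results are given below with and without this array where it bears on them. Slide 4 held spleen replicate 4 and marrow replicate 2, slide 5 held spleen replicates 5 and 6 and marrow replicate 3, and slide 1 held marrow replicate 1.

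No gene passed limma's adjusted threshold of 0.05 (0% of 11937), and the smallest adjusted p was 0.0501, for Mxd3. At an unadjusted p under 0.05 there were 1268 genes (10.6% of those tested, where chance alone gives 597). Of these, 534 read higher in spleen (4.47%) and 734 read lower (6.15%). The 3 spleen values lay all above the 3 marrow values for 966 genes (8.09%) and all below them for 975 genes (8.17%). These shares over all genes are the base for the counts within lists below. The difference was over 1 in size on the log2 scale for 694 genes, 254 higher and 440 lower in spleen, and its median over all genes was 0.02. In simulated data of this size the fit found 63% of the 2-fold and 94% of the 4-fold differences put in. The simulated noise was independent between genes, with the same spread on all arrays and no array that stood apart. These shares therefore do not say how many differences of that size were missed here. With slide as a fixed block 171 genes passed (39 higher and 132 lower), without KO-nl-SP replicate 6 there were 166 (23 higher and 143 lower), and without replicate 4 there were 2, Id3 and Timp1, both higher (Timp1 is named after its values were seen). The authors' own log2 values gave 766 (309 higher and 457 lower), and array weights, which count an array that departs from its group less, gave 515.

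The genes with the smallest p on the spleen side were a mixed set. Spic, the gene of Spi-C itself, read 7.42, 7.35 and 7.48 in knockout spleen, against 5.26, 4.77 and 4.84 in knockout marrow. The groups lay far apart, by 2.46 ± 0.56 (SE), with a limma adjusted p = 0.0729. Within slide 4 the difference was 2.65, within slide 5 it was 2.58, and it passed with slide as a block (adjusted p = 0.016). A dimmer second Spic probe, detected on 3 of the 6 arrays, differed by +0.50. Klf2, a transcription factor that holds macrophages and lymphocytes in a resting state, read 11.56, 11.14 and 10.92 in spleen, against 9.52, 9.9 and 9.48 in marrow (+1.57 ± 0.32, adjusted p = 0.0658). Cd244a, a receptor of the SLAM family best known on natural killer cells, read 7.75, 8.19 and 7.03 in spleen, against 5.7, 6.09 and 5.32 in marrow (+1.95 ± 0.41). Neither gene's groups overlapped, and dimmer Cd244a probes differed by +0.12 and +0.53. Il18, the precursor of the cytokine interleukin 18, read 7.36, 8.07 and 7.59 in spleen, against 5.98, 5.96 and 6.18 in marrow (+1.63 ± 0.39, adjusted p = 0.104), with a dimmer probe at +0.23. Id3, an inhibitor of helix-loop-helix transcription factors that Kupffer cells of the liver need, read 4.71, 5.65 and 5.65 in spleen, against 4.31, 4.28 and 4.42 in marrow, where 1 array detected it. The other 5 of the 10 were Gas2l1 (+1.43, with dimmer probes at +0.88 and -0.01), Npas4 (undetected in marrow, at least 1.11-fold higher in spleen), Lrrc8c (+0.74), Dusp2 (+1.80) and Kdm3a (+0.71), a histone demethylase.

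The genes with the smallest p on the marrow side included several with known roles in cell division, of which Ndc80 is on the mitosis list. Mxd3, a partner of Max expressed in dividing cells, read 4.38, 4.17 and 4.93 in knockout spleen, against 6.3, 5.95 and 6.17 in knockout marrow. That is a difference of -1.65 ± 0.28 (adjusted p = 0.0501), and 1 spleen array detected the gene. H2ax, the histone that marks DNA breaks, read 8.28, 7.58 and 8.81 in spleen, against 10.47, 10.23 and 10.3 in marrow (-2.11 ± 0.44, adjusted p = 0.0658). Ndc80, the kinetochore subunit that grips microtubules, read 5.95, 4.7 and 6.82 in spleen, against 8.47, 7.87 and 7.82 in marrow (-2.23 ± 0.48). In each of the 3 the spleen arrays lay below all marrow arrays, and replicate 6 was the highest spleen array. Knstrn (-1.89) and Kif20b (-2.26), both of the mitotic spindle, Fam83d (-1.43), also a spindle protein, and Arhgef39 (-2.67) showed the same order of spleen arrays, except that replicate 5 was not the lowest for Fam83d. Serpinf1, which encodes the secreted anti-angiogenic protein PEDF, had the widest gap of the 10. It read 5.35, 4.61 and 5.39 in spleen, against 7.09, 8.45 and 8.3 in marrow (-2.83 ± 0.58). A second, dimmer Serpinf1 probe differed by +0.27, so the probes disagree. Lonrf3 (-1.76, with a dimmer probe at 0) and C2cd5 (-0.73) completed the set.

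**Figure D1:**
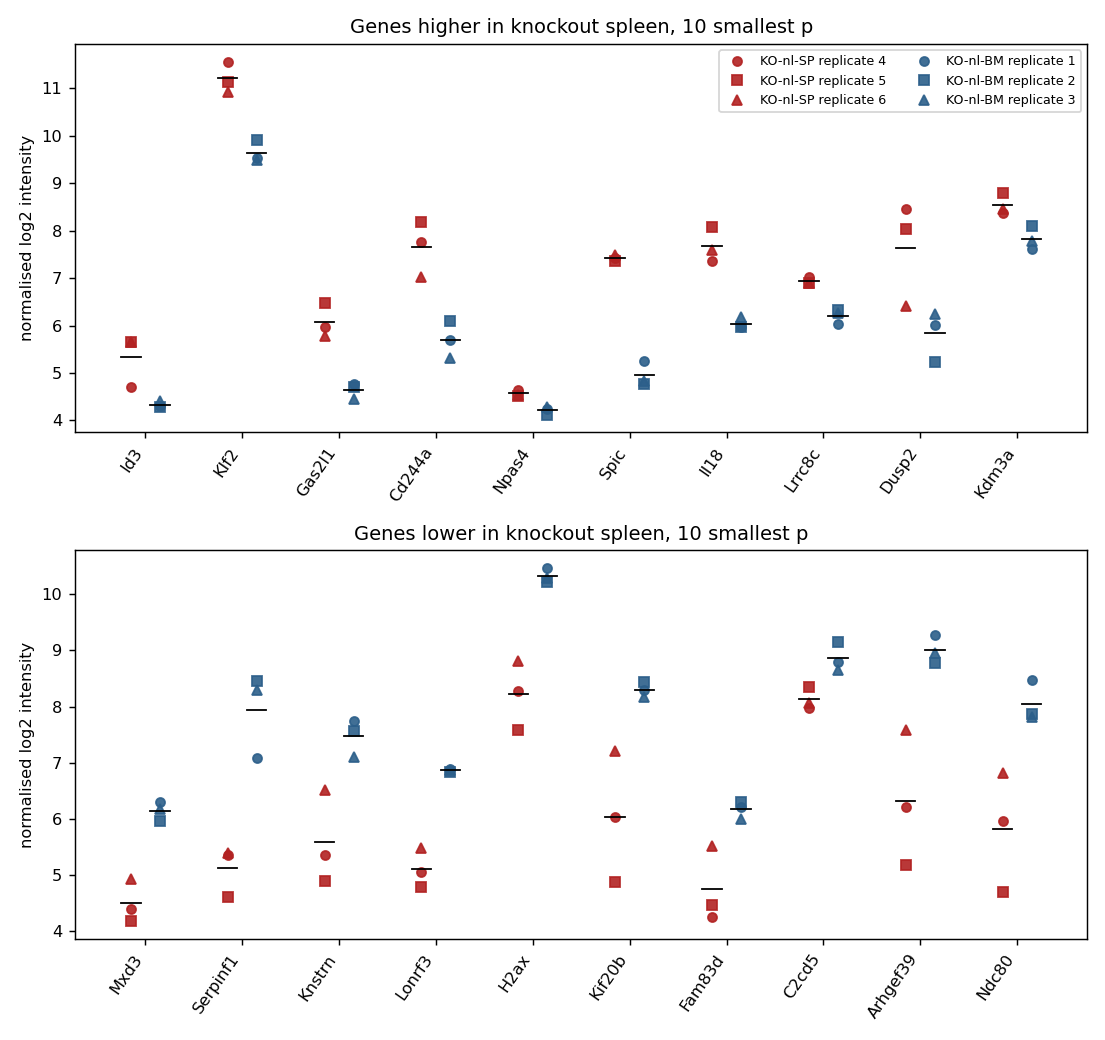
Normalised log2 intensity (vertical axis) of the 10 genes with the smallest p in each direction, with one point per array, knockout spleen in red left of knockout marrow in blue, and black bars at the group means. Spic lay between 7.35 and 7.48 on the spleen arrays and between 4.77 and 5.26 on the marrow arrays, and in most genes of the lower panel spleen replicate 6 (red triangle) was the spleen array nearest to marrow.

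The promoters of the 2 genes with the largest difference in each direction among these are shown because they head the 2 sides of the comparison. The windows are 300 bases around the annotated gene start, from RefSeq, build GRCm38.p6. Capitals mark matches, on either strand, to the antioxidant response core TGACNNNGC (12.5% of all 27025 promoters hold one), the PU.1 site GAGGAAGT (3.28%), the GATA site AGATAAG (3.07%) or the CHR element TTTGAA (18.1%), a sequence of cell cycle promoters. No 2 of the marked matches overlap. Spic lies at chr10:88682974-88683273 (minus strand), Cd244a at chr1:171558943-171559242 (plus), Serpinf1 at chr11:75422574-75422873 (minus) and Arhgef39 at chr4:43508698-43508997 (minus).
Spic: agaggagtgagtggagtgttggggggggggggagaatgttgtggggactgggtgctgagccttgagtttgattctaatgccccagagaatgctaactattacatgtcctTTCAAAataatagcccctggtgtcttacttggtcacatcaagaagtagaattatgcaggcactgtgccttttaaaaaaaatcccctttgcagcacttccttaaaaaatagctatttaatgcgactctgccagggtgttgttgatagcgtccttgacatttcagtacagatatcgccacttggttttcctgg
Cd244a: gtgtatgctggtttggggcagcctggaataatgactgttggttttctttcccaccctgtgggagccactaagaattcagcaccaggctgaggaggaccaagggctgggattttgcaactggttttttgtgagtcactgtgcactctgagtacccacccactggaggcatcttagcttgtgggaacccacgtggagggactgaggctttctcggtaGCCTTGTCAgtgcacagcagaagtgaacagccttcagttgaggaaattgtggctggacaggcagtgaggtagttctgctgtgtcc
Serpinf1: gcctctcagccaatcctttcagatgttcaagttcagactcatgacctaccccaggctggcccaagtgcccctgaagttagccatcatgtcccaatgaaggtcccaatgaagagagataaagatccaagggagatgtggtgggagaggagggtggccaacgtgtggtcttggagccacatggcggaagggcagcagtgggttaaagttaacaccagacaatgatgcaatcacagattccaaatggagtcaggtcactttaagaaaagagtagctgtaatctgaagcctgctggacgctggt
Arhgef39: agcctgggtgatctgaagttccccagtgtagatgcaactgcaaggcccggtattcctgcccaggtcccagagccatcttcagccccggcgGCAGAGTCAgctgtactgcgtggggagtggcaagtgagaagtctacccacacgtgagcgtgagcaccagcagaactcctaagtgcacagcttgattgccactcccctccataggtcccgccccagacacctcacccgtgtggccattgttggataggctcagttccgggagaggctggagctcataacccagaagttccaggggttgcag
The capitals mark a CHR element in Spic and an antioxidant response core in Cd244a and in Arhgef39, and the Serpinf1 window holds none of the 4 motifs.

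All 32 measured mitosis genes read lower in knockout spleen (46.6% of all genes did), by a median of 2.21 on the log2 scale, and for 28 of them the groups did not overlap. At an unadjusted p under 0.05 there were 27 of 32. Ckap2, a spindle protein, read 4.88, 4.27 and 6.18 in spleen, against 7.35, 7.06 and 7.1 in marrow (-2.05 ± 0.46, adjusted p = 0.0717). Kif11, the kinesin that pushes spindle poles apart, read 5.87, 4.66 and 7.19 in spleen, against 8.45, 8.52 and 8.09 in marrow (-2.45 ± 0.58). Foxm1, the transcription factor that switches on mitotic genes and no member of the list, read 5.45, 4.79 and 6.79 in spleen, against 7.72, 8.07 and 7.57 in marrow (-2.11 ± 0.46), and its second probe gave -2.13. A dimmer second Kif11 probe, detected on 2 of the 6 arrays, gave -0.10. For Ckap2, Kif11 and Foxm1 the marrow arrays lay within 1 unit of each other, and spleen replicate 5 was the lowest of all arrays.

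The mean of the mitosis list, with each gene centred on the 6 arrays, was -1.05, -2.06 and 0.27 in spleen replicates 4, 5 and 6, against 1.09, 0.92 and 0.82 in marrow. Replicate 6 therefore lay nearer to marrow than to its own group, yet below all marrow arrays. Without it the median difference of the list was -2.84 and 25 of the 32 genes passed limma's adjusted threshold. Without replicate 5 the median was -1.55, and within slides 4 and 5 it was -2.15 and -1.90. With slide as a block 20 mitosis genes passed, and in the authors' values 26 did.

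DNA replication genes went the same way at a smaller size. All 42 read lower in spleen, by a median of 1.06, with 24 at an unadjusted p under 0.05 and 12 without overlap between the groups. Cdc45, which opens the replicative helicase, read 6.25, 5.25 and 7.67 in spleen, against 8.44, 8.58 and 8.11 in marrow (-1.99 ± 0.56, adjusted p = 0.148). Dnmt1, which copies DNA methylation after replication, read 8.13, 7.47 and 9.17 in spleen, against 9.7, 9.59 and 9.41 in marrow (-1.31 ± 0.41). In both genes spleen replicate 6 lay close under the lowest marrow array. Without it the list median was -1.62 and 10 of the 42 genes passed, and without replicate 5 the median was -0.58. With slide as a block 1 DNA replication gene passed.

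The 3 mitosis genes with the smallest p, Ndc80, Ckap2 and Kif11, are shown with their promoters because a sequence element is common to the list. The CHR element, which the DREAM and MuvB complexes bind, was searched for after the values were seen. It lies in the windows of 24 of the 28 mitosis genes with a RefSeq promoter (85.7%), against 14.7% of 34 DNA replication genes and 12.6% of the 9680 tested genes with one. The windows are at chr17:71526808-71527107 (minus strand) for Ndc80, chr8:22185770-22186069 (minus) for Ckap2 and chr19:37376132-37376431 (plus) for Kif11, all of GRCm38.p6, and the capitals mark the element.
Ndc80: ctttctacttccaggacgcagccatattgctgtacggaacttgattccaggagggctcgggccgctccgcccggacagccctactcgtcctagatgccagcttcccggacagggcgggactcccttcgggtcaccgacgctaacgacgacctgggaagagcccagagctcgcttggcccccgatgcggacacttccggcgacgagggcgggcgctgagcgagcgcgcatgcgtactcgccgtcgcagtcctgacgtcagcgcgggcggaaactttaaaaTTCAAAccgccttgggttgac
Ckap2: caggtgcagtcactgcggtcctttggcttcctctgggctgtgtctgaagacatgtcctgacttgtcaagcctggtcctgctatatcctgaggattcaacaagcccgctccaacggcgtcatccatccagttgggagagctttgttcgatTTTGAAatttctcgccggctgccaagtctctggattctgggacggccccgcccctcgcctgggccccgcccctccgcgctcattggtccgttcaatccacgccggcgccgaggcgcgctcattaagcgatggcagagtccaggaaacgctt
Kif11: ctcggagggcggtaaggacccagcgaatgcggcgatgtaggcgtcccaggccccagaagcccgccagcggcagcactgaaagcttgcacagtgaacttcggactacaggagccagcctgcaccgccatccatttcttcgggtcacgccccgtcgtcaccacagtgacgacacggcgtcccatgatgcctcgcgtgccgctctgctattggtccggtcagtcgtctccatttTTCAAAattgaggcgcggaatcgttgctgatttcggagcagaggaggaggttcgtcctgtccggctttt
The element is read as TTTGAA in Ckap2 and on the opposite strand, as TTCAAA, in Ndc80 and Kif11.

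Transcripts of granulocyte precursors lay lower in spleen together with the cell division genes. Of 11 primary granule genes, which neutrophil precursors express in the marrow, 8 read lower in spleen, and all 8 did so at an unadjusted p under 0.05 and without overlap. Mpo, myeloperoxidase, read 8.99, 6.81 and 9.83 in spleen, against 12.88, 12.79 and 13.08 in marrow (-4.37 ± 1.15, adjusted p = 0.12), and its 3 other probes gave -3.6 to -4.59. Elane, neutrophil elastase, read 5.84, 5.09 and 8.31 in spleen, against 11.27, 11.12 and 10.53 in marrow (-4.56 ± 1.21). Ctsg, cathepsin G, read 7.16, 6.4 and 8.25 in spleen, against 10.92, 11.11 and 11.11 in marrow (-3.78 ± 0.98). The gap between the groups is wide in all 3, and 8.31 for Elane in spleen replicate 6 is the nearest approach. Srgn, a granule proteoglycan that macrophages also make, was the 1 list gene higher in spleen at an unadjusted p under 0.05 (+0.89). The summed intensity of the 11 genes was 1747 to 3659 per spleen array and 16886 to 20549 per marrow array. The list median was -2.89, and lay between -3.29 and -2.24 when any 1 array was left out.

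Later neutrophil granule genes differed by a median of -1.27, with 17 of 18 lower in spleen and 0 at an unadjusted p under 0.05 (limma). Without KO-nl-BM replicate 1 the median was -0.84. Their summed intensity was 10378 to 37032 in spleen and 31867 to 112367 in marrow, so the ranges overlapped. Of 9 eosinophil genes 8 read lower in spleen, by a median of 0.46 that was -0.07 without KO-nl-BM replicate 1 and -0.09 and -0.13 within slides 4 and 5. Prg2, the major basic protein of eosinophil granules, read 7.98, 6.41 and 8.54 in spleen, against 12.44, 10.57 and 12.16 in marrow (-4.08 ± 1.23, adjusted p = 0.175). Epx, eosinophil peroxidase, was detected on no spleen array and was at least 2.72-fold lower there. All 9 mast cell and basophil genes read lower, by a median of 2.08, but within slide 4 the median was +0.33, and without KO-nl-BM replicate 2 it was -3.21. Their summed intensity was 392 to 1607 in spleen and 1278 to 12989 in marrow, with KO-nl-BM replicate 2 inside the spleen range. The progenitor gene Cd34 was undetected in spleen, at 4.3, 4.41 and 4.22, against 5.69, 4.8 and 5.24 in marrow, at least 1.73-fold lower.

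Erythroid transcripts varied widely between the spleen arrays. The beta globin gene Hbb-bt read 12.32, 6.32 and 13.92 in spleen, against 13.73, 13.68 and 13.81 in marrow. Slc4a1, the anion exchanger of the red cell membrane, read 10.7, 4.88 and 12.82 in spleen, against 13.45, 12.26 and 13.16 in marrow, and Alas2, the first enzyme of haem synthesis in red cells, read 7.62, 4.3 and 9.83 against 11.31, 9.08 and 10.64. Replicate 5 read far below the other 5 arrays and replicate 6 lay within the marrow range for 2 of the 3 genes and above it for Hbb-bt, so the groups overlapped. Of the 26 genes 25 read lower in spleen, by a median of 1.52, with 5 at an unadjusted p under 0.05. The median was -2.69 without replicate 6 and -0.60 without replicate 5. Their summed intensity was 22307, 2531 and 73137 in spleen, against 74856, 50253 and 72351 in marrow. The spleen arrays thus stood in the same order for the erythroid as for the mitosis and DNA replication lists, with replicate 5 lowest and replicate 6 highest. The part of erythroid and granulocytic transcripts in the cell division result was not tested.

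**Figure D2:**
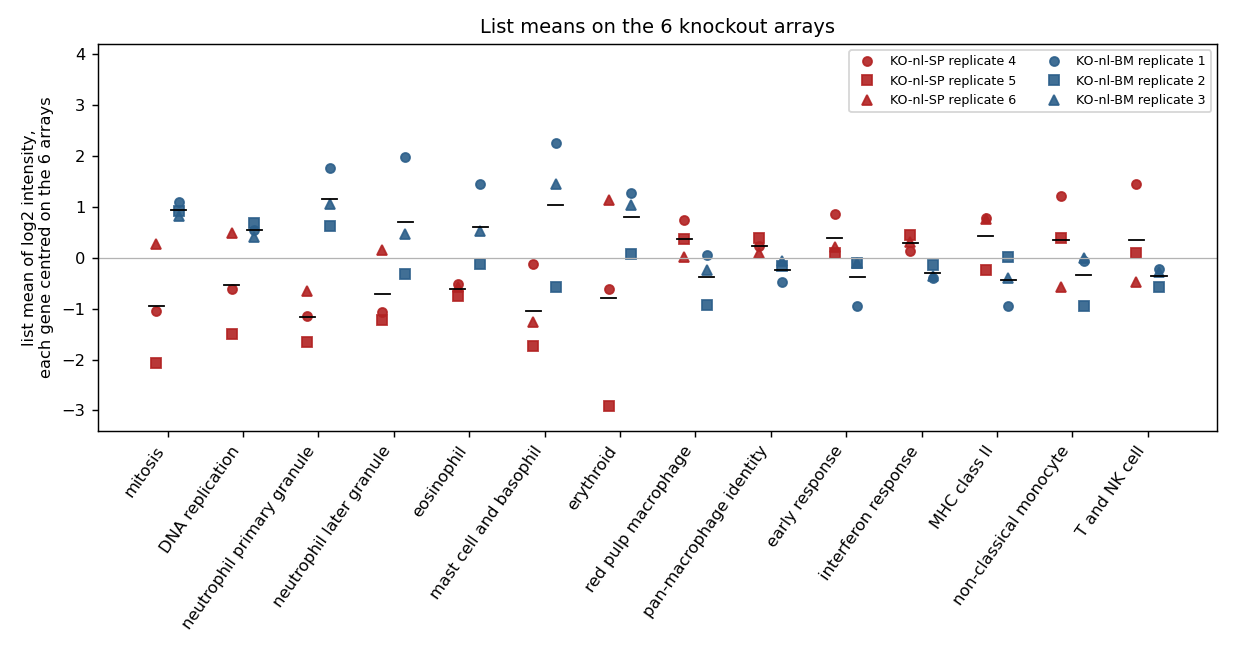
Mean of each gene list on each array (vertical axis, log2 intensity with each gene centred on the 6 arrays), knockout spleen in red left of knockout marrow in blue, with black bars at the group means. Spleen replicate 6 (red triangle) lay at 0.27 for mitosis, against -1.05 and -2.06 for replicates 4 and 5, and the erythroid list ran from -2.91 to 1.14 among the spleen arrays.

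Red pulp genes read higher in spleen in 16 of 21 cases (53.4% of all genes did), with a median of +0.63, 4 at an unadjusted p under 0.05 and 7 without overlap. After Spic the smallest p belonged to Nr1h3, the oxysterol receptor LXR alpha. It read 6.79, 7.03 and 8.75 in spleen, against 5.17, 5.65 and 4.78 in marrow (+2.32 ± 0.76, adjusted p = 0.224), and here replicate 6 was the highest array. A dimmer Nr1h3 probe, detected on 2 of the 6 arrays, differed by +0.02. Treml4, a receptor for dead cells, read 8.79, 8.2 and 7.55 in spleen, against 7.17, 5.08 and 6.08 in marrow (+2.07 ± 0.75). Treml4 is also on the non-classical monocyte list, so it does not tell red pulp macrophages from these monocytes. Itgad, the integrin chain alpha D of red pulp macrophages, read 7.04, 5.97 and 4.9 in spleen, against 4.41, 4.22 and 4.32 in marrow, where no array detected the probe used (+1.65 ± 1.1, adjusted p = 0.621). Its 2 dimmer probes, each detected on 1 marrow array, differed by +1.40 and +0.10. Other known red pulp genes did not separate the tissues. Vcam1, an adhesion molecule that marrow island macrophages also use, read 8.2, 7.92 and 6.74 in spleen, against 8.4, 6.88 and 7.04 in marrow, a difference of +0.18 (95% interval -2.09 to 2.45) whose sign turned in the authors' values. Slc40a1, the iron exporter ferroportin, read 8.82, 8.11 and 9.53 in spleen, against 11.57, 7.83 and 10.12 in marrow (-1.02, 95% interval -3.38 to 1.34). Both intervals span more than a doubling in either direction, so these arrays do not settle the direction for either gene. Ccr3, also on the list, was undetected on all 6 arrays. The list median was 1.21 within slide 4, 0.29 within slide 5, 1.08 without replicate 6 and 0.43 without replicate 5. Over the 20 alternatives tried it ran from 0.24 to 1.21.

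Among 24 genes of iron and haem recycling 16 read higher in spleen (53.4% of all genes did). For 8 of them the groups did not overlap (8.09% of all genes lay so). Spic, counted among the red pulp genes, is also on this list. Hmox1, haem oxygenase 1, which breaks haem open, read 7.69, 7.8 and 7.77 in spleen, against 6.3, 6.56 and 6.26 in marrow (+1.38 ± 0.59, adjusted p = 0.383). Slc11a1, the phagosomal metal transporter Nramp1, read 11.98, 12.62 and 11.7 in spleen, against 11.11, 10.46 and 10.91 in marrow (+1.28 ± 0.40, adjusted p = 0.201). Ftl1, the ferritin light chain, read 11.8, 11.56 and 11.54 in spleen, against 10.83, 10.94 and 11.08 in marrow. In these 3 genes every spleen array lay above every marrow array, and none of them passed the adjusted threshold. Tfrc, the transferrin receptor that erythroid precursors also carry, differed by -1.97, and the list median was +0.35.

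Of 19 genes of LXR signalling and lipid handling 14 read higher in spleen, by a median of 0.34 that was -0.02 within slide 4 and 0.20 without KO-nl-BM replicate 1. Apoe, apolipoprotein E, read 10.57, 10.76 and 9.19 in spleen, against 8.83, 7.45 and 9.54 in marrow, and the groups overlapped through replicate 6. Of 21 scavenger receptors 17 read higher, by a median of 0.45 (0.28 without KO-nl-SP replicate 5). Clec4n, the lectin Dectin-2, read 6.91, 7.7 and 7.21 in spleen, against 5.85, 5.29 and 5.75 in marrow (+1.65 ± 0.46, adjusted p = 0.147), and Clec4a3 differed by +1.57. Among apoptotic cell receptors 12 of 23 read higher. Mertk, a receptor for dying cells, read 5.4, 7.38 and 6.84 in spleen, against 5.39, 5.37 and 4.54 in marrow, with replicate 4 at the marrow level. Cd300ld read 8.8, 8.32 and 8.57 in spleen, against 7.48, 6.3 and 6.53 in marrow (+1.79 ± 0.54), without overlap. Tgm2, a transglutaminase induced in macrophages by retinoic acid and during uptake of dying cells, read 9.82, 8.78 and 10.81 in spleen, against 7.99, 7.79 and 7.15 in marrow (+2.16 ± 0.79, adjusted p = 0.286). A dimmer Tgm2 probe, detected on 3 arrays, differed by -0.04.

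Genes of the early transcriptional response read higher in spleen in 21 of 26 cases, with a median of +0.64, and 8 had an unadjusted p under 0.05. The median was 0.33 without KO-nl-SP replicate 4, and 0.17 within slide 5. Besides Klf2 these included Dusp2, a phosphatase of MAP kinases, which read 8.46, 8.03 and 6.42 in spleen, against 6.02, 5.24 and 6.25 in marrow (+1.80 ± 0.45, adjusted p = 0.112). Replicate 6 lay barely above the marrow arrays, and without it the difference was 2.41 (adjusted p = 0.0088). Junb, a subunit of AP-1, read 11.35, 10.45 and 10.86 in spleen, against 8.24, 10.24 and 10.19 in marrow. Dusp1, another MAP kinase phosphatase, read 12.95, 12.87 and 12.73 in spleen, against 10.79, 12.19 and 12.1 in marrow. KO-nl-BM replicate 1 was the lowest array for both genes, and without it the difference was 0.67 for Junb, against 1.33 with it, and 0.71 for Dusp1, against 1.16. Hspa1a, an inducible heat shock chaperone, read 10.9, 7.36 and 6.45 in spleen, against 4.5, 4.65 and 5.98 in marrow (+3.19 ± 0.98), while the median of 16 heat shock genes was +0.03.

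All 15 MHC class II genes read higher in spleen, by a median of 0.97, with 0 at an unadjusted p under 0.05 (limma), and the median was 0.64 without KO-nl-BM replicate 1. H2-Ab1, the beta chain of the antigen-presenting molecule I-A, read 13.29, 11.99 and 13.66 in spleen, against 11.44, 12.36 and 11.79 in marrow, so the groups overlapped through spleen replicate 5. Cd74, the invariant chain and the receptor of Mif, read 13.03, 11.67 and 13.53 in spleen, against 10.92, 12.33 and 11.66 in marrow (+1.11, 95% interval -0.84 to 3.05), and followed the same order of arrays. Cd44, which signals with Cd74, read 11.25, 11.54 and 10.01 in spleen, against 10.34, 10.12 and 10.24 in marrow. Interferon-response genes read higher in spleen in 31 of 34 cases, by a median of 0.66, with 1 at an unadjusted p under 0.05 and 8 without overlap. The median was 0.42 without KO-nl-SP replicate 5, 0.33 within slide 4, 0.36 without background correction and 0.39 in the authors' values. Irf7, the factor that amplifies the interferon response, read 8.45, 9.28 and 7.77 in spleen, against 7.11, 7.12 and 7.48 in marrow (+1.26 ± 0.68, adjusted p = 0.515).

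Of 23 Toll-like receptor and pattern sensor genes 20 read higher in spleen (53.4% of all genes did). At an unadjusted p under 0.05 (limma) 6 did so, against 4.47% of all genes. The list median was +0.46, but 0.05 within slide 4 and 0.53 within slide 5. Nod1, a sensor of bacterial cell wall, read 10.57, 10.5 and 10.11 in spleen, against 9.33, 9.38 and 8.69 in marrow (+1.26 ± 0.40, adjusted p = 0.201). Nod2, its relative, read 4.85, 5.42 and 5.04 in spleen, against 4.45, 4.37 and 4.38 in marrow. Neither gene's groups overlapped. Among 24 chemokine and receptor genes Ccl4, which attracts T cells and monocytes, read 11.28, 8.76 and 10.16 in spleen, against 7.02, 8.16 and 8.63 in marrow (+2.13 ± 0.76). Cxcl12, the factor that holds blood stem cells and B cell precursors in the marrow, read 4.35, 4.27 and 4.37 in spleen, where no array detected the probe used, against 6.1, 5.55 and 5.34 in marrow. The difference was -1.33 ± 0.35 (adjusted p = 0.12), and a second probe, detected on 1 spleen array, differed by +0.07. Stromal cells of the marrow are the known source of Cxcl12. Of 17 measured genes of endothelium and stroma 4, namely Col1a2, Lepr, Pdgfra and Dcn, were undetected on all 6 arrays, and the summed intensity of the list was 2426 to 3737 in spleen and 4175 to 5733 in marrow. Their part in the Cxcl12 result was not tested.

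Among integrins and adhesion genes 18 of 25 read higher in spleen. Icam1, the ligand of leukocyte integrins, read 9.07, 9.18 and 9.15 in spleen, against 7.12, 8.35 and 7.3 in marrow (+1.54 ± 0.47, adjusted p = 0.18). Among 26 genes of tissue signals 17 read higher. Hes1, a target of Notch signalling, read 6.65, 7.18 and 4.91 in spleen, against 4.66, 4.21 and 4.17 in marrow (+1.91 ± 0.52, adjusted p = 0.142), and without replicate 6 the difference was 2.58 (adjusted p = 0.013). Pdgfb, a growth factor for pericytes, read 7.88, 6.95 and 5.06 in spleen, against 5.22, 4.47 and 5.59 in marrow, and replicate 6 lay among the marrow arrays. Lgmn, a lysosomal protease, read 10.09, 10.63 and 10.07 in spleen, against 8.14, 8.66 and 8.27 in marrow (+1.91 ± 0.56, adjusted p = 0.166), without overlap. Cd63, a membrane protein of late endosomes and of basophil and platelet granules, read 6.77, 5.15 and 6.22 in spleen, against 10.31, 7.03 and 9.52 in marrow (-2.91 ± 1.22). Within slide 4 the Cd63 difference was -0.25 and within slide 5 it was -3.84, and dimmer Cd63 probes gave -1.21 and -1.93. Over all 35 lysosome genes the median was +0.21, and 0.04 without KO-nl-BM replicate 1. Il12a, the p35 subunit of interleukin 12, read 4.29, 4.25 and 4.37 in spleen, where no array detected it, against 5.93, 5.48 and 5.71 in marrow, and was at least 2.38-fold lower in spleen (adjusted p = 0.114).

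Lymphocyte transcripts were uneven among the spleen arrays. Of 19 T and NK cell genes 17 read higher in spleen, by a median of 0.77, with a summed intensity of 8478, 3137 and 1701 in spleen, against 3185, 2127 and 2296 in marrow. Cd8b1, the list gene with the smallest p, went the other way. It read 9.32, 9.92 and 9.24 in spleen, against 10.65, 10.21 and 9.93 in marrow (-0.77 ± 0.37, limma adjusted p = 0.459), without overlap. A dimmer Cd8b1 probe, detected on 1 array, differed by +0.10. Cd3e, a chain of the T cell receptor complex, read 8.06, 5.45 and 5.07 in spleen, against 4.79, 4.74 and 5.43 in marrow, so replicate 4 alone stood out. Without that array the list median was 0.13, and without replicate 6 it was 1.18. Non-classical monocyte genes read higher in spleen in 9 of 12 cases, with a median of +0.91 and summed intensities of 8473 to 15499 in spleen and 7996 to 13440 in marrow. Without KO-nl-SP replicate 6 the median was 1.51, and without KO-nl-SP replicate 4 it was 0.68. Within slides 4 and 5 it was 1.85 and 0.35. Of 11 classical monocyte genes 7 read lower in spleen, with a median of -0.44 (-0.13 without KO-nl-SP replicate 4). Batf3, a factor of cross-presenting dendritic cells, read 8.34, 7.97 and 7.24 in spleen, against 5.5, 5.59 and 6.13 in marrow (+2.11 ± 0.67, adjusted p = 0.205), while the 17 dendritic cell genes had a median of +0.34 that was -0.04 within slide 5, 0.17 without KO-nl-SP replicate 4 and 0.52 without replicate 6. B cell genes were low in both tissues. Their summed intensity was 516 to 748 in spleen and 559 to 631 in marrow, and Ms4a1, Fcmr, Vpreb3 and Cxcr5 were undetected on all 6 arrays. The part of T, NK, monocyte and dendritic cell transcripts in the spleen-side differences was not tested.

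**Figure D3:**
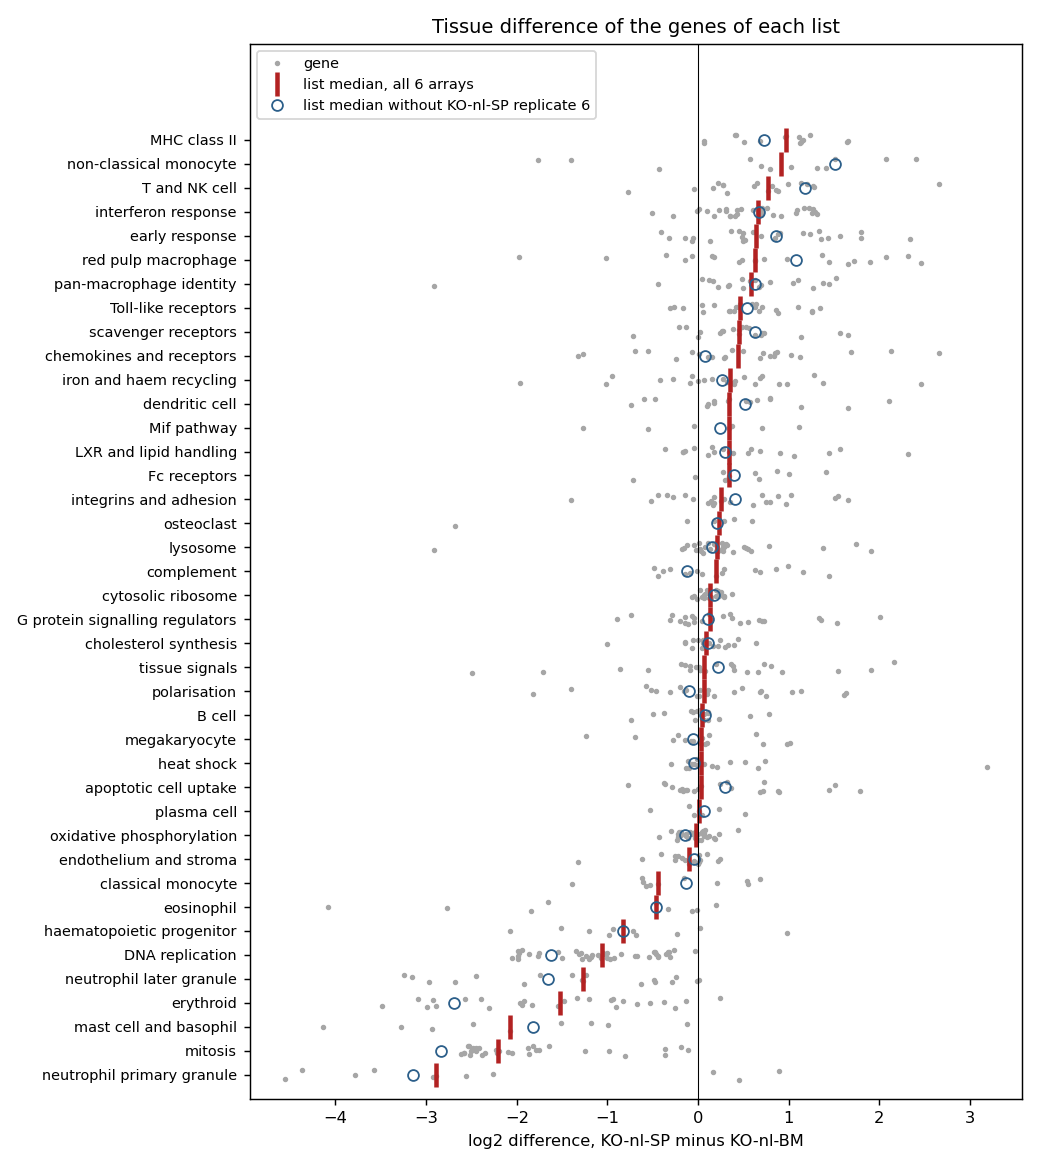
Log2 difference between knockout spleen and knockout marrow (horizontal axis, positive values higher in spleen) of every gene of each list, sex-linked genes left out (grey points), with the list median over all 6 arrays (red bar) and without KO-nl-SP replicate 6 (blue ring). The mitosis median was -2.21 with and -2.84 without that array, and the red pulp median 0.63 with and 1.08 without it.

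The same tissue contrast in mice with Mif used other arrays, though some lay on the same slides. There 461 genes passed limma's adjusted threshold (3.86%), 215 higher in spleen (1.8%) and 246 lower (2.06%). Of these 461, the difference in knockout mice had the same sign for 428 (92.8%). The share of all genes with the same sign was not counted. For 222 of the 461 the knockout difference had that sign and an unadjusted p under 0.05 (limma). Over all genes 10.6% had such a p in knockout mice, in either direction. Among the genes called higher in wild-type spleen the median difference was 0.37 in knockout and 1.12 in wild type, and among those called lower it was -1.07 in knockout and -1.62 in wild type. Sizes chosen for passing in wild type tend to be larger there, so the ratio is a description. Across all genes the knockout and wild-type differences correlated at r = 0.67, where genes are not independent replicates.

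The difference between the genotypes was tested itself, as the knockout tissue difference minus the wild-type one. No gene passed (0% of 11937, smallest limma adjusted p = 0.49), and 535 had an unadjusted p under 0.05 (4.48%). The mitosis median was -2.21 in knockout and -2.54 in wild type, where 22 of the 32 genes passed. Spic differed between tissues by +2.46 in knockout and by +4.46 in wild type. The gap of -1.99 (95% interval -3.62 to -0.37) did not pass (adjusted p = 0.93), and the interval runs from a small gap to one larger than the whole knockout difference. Dusp2 differed by +1.80 in knockout and by +3.75 in wild type, a gap of -1.95 (95% interval -3.26 to -0.64). Klf2 differed by +1.57 in knockout and +1.72 in wild type, a gap of -0.14 (95% interval -1.07 to 0.79). One wild-type array stood apart, since WT-nl-SP replicate 1 correlated at no more than 0.919 with any other array and was the only non-leukaemic array with Xist above background, at 11.35, a transcript of female cells. All 6 knockout arrays had Xist at 4.15 to 4.2. Without WT-nl-SP replicate 1, 13 genes passed in wild type, without WT-nl-SP replicate 2 there were 853, and without a wild-type marrow array 26 to 144. With WT-nl-SP replicate 2 left out, 37 genes passed the test of the difference.

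**Figure D4:**
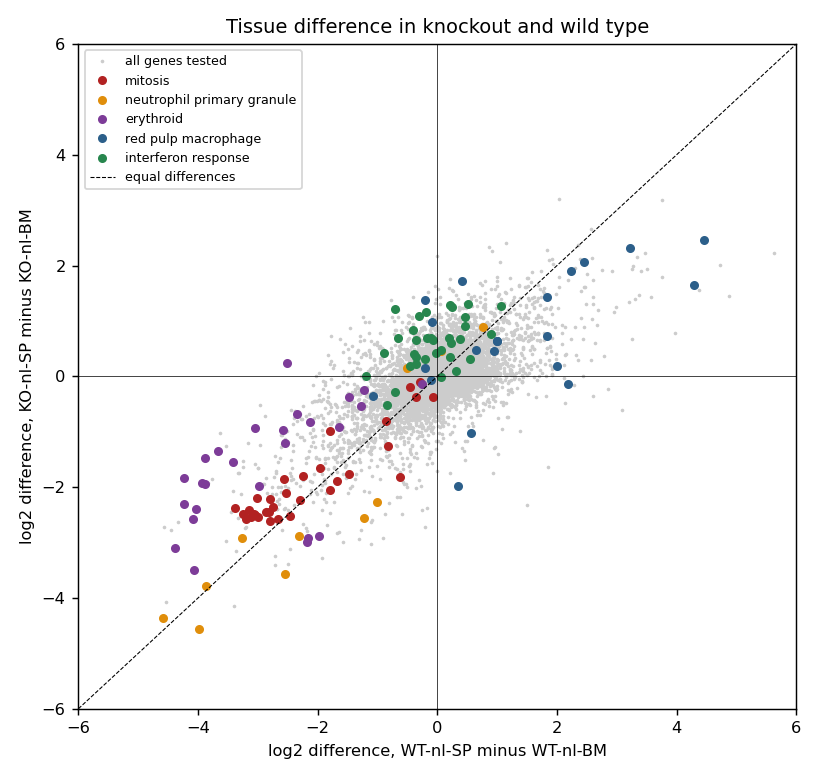
Log2 difference between spleen and marrow in knockout mice (vertical axis) against the same difference in wild-type mice (horizontal axis), with one point per gene, all 11937 genes in grey, 5 gene lists in colour and a dashed line at equal differences. All 32 mitosis genes and 8 of 11 primary granule genes lay lower in knockout spleen, and the wild-type medians of these lists were -2.54 and -2.31. Spic, at 2.46 in knockout and 4.46 in wild type, is among the red pulp genes below the line.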

How the data were processed

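F4/80-sorted cells were profiled on 1 bead array per sample. The deposited table gives the authors' probe intensity (linear, not normalised) with a detection p-value, for 45281 probes. The authors' log2 values, also deposited, were made with Partek per the submitters' processing notes, with version and normalisation not given in the sources used here. Intensities were background-corrected and quantile normalised (neqc, limma 3.58.1, R 4.3.3, offset 16). Kept were the 23515 probes with a detection p under 0.05 on 3 or more of the 30 arrays, and the brightest kept probe per gene was used, named through the platform annotation (34885 probes with 1 symbol, 18 with several, 10378 with none), of which 34807 matched RefSeq by gene ID. That left 11937 genes, 9500 of them detected on at least 3 of the 6 arrays. One model with 8 groups was fitted (lmFit, eBayes, 22 residual degrees of freedom), with Benjamini-Hochberg adjustment over all genes. On simulated data with 200 changed genes, the fit made 17 false calls.

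The comparison and the 41 gene lists were chosen with earlier results of these data known. Genes were picked by smallest p, 10 per direction and 2 per list, plus Mif and Adgre1, and promoters for the 2 largest differences per direction among them. Not all genes picked per list are described above. Those left out include Itgam, Irf4, Cd177, Chil3, Mcpt8, Ms4a2, Itga2b, Tubb1, Tbx21, Hsd17b7, Cyp51, Mmp9 and Emcn. Genes outside this rule, among them Elane, Foxm1, Kif11, Hmox1, Ftl1, Slc40a1, Vcam1, Itgad, Csf1r, Junb, Dusp1, Irf7, H2-Ab1, Slc4a1, Alas2, Cd3e, Epx, Tgm2, Srgn and Tfrc, were chosen after their values were seen. A gene undetected on all arrays of a group has only a bound, taken from the lowest signal among detected probes on each array. The bound compares group means and does not cover the spread between arrays. Raw median intensity was 83.4 to 87.1 on the 6 arrays and 36.6% to 40.1% of probes were detected. No 2 arrays held identical values. The number of arrays limits the precision.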

Additional observations from a re-analysis of the deposited data

How the results depend on the processing

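The count of called genes in knockout mice was 0 without background correction, in the compared groups alone and over all kept probes. It was 766 in the authors' log2 values, 515 with array weights and 171 with slide as a fixed block. It was 1 with 75th percentile scaling, a strict filter, detection on 3 of the 6 or of the 12 non-leukaemic arrays, or slide as a random block (Mxd3 each time), and 2 with no filter (Mxd3 and Npas4). With 1 array left out it ran from 0 to 166. The cause was not tested. The authors' values carry an unknown normalisation. In wild type, 461 became 1933, 1483 and 737 in the authors' values, with array weights and with slide as a fixed block, 306 in the compared groups alone, and 13 to 853 with 1 array left out. The difference between genotypes was 0, but 2 with array weights, and 0 to 37 with 1 array left out. The replicate block gave 0 in knockout mice, where the groups share no replicate number, 322 in wild type and 0 for the difference. In wild type same-numbered arrays deviated together at r = -0.02, 0.17 and 0.10, so the numbers do not pair them.

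For the 86 genes tried, 1709 values were recomputed, of which 1528 kept sign and side of the threshold, 173 newly passed and 8 changed sign. Vcam1 was -0.18 in the authors' values, -0.24 with slide as a fixed block and, with 1 array left out, -0.11 to 0.66. Within slide 4 Oas1a, an interferon-response gene, was -0.28 and Slc40a1 0.99, and within slide 5 Cd3e was -0.17. Of the lists described above, the median changed sign in 1 alternative for dendritic cell, mast cell and basophil, apoptotic cell uptake, and lipid handling genes, and in 2 for heat shock and B cell genes. Probes near background (865 genes on none of the 6 arrays) bound what can be seen.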

Other observations

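Some lists hardly differed in their median between knockout spleen and knockout marrow. The 32 oxidative phosphorylation genes had a median of -0.02 and the 22 cytosolic ribosome genes +0.13. The 18 cholesterol synthesis genes had a median of +0.09, and the 17 complement genes +0.20. The 24 polarisation genes, which hold markers of both classical and alternative activation, had a median of +0.06 with 14 higher in spleen. Members ran from -1.82 to +1.63, with 3 higher and 1 lower at an unadjusted p under 0.05 (limma). Il18 and Il12a, given above, are on this list, so its median does not mean that its members did not differ. Of these 5 medians only that of the ribosome list kept its sign in every alternative tried.

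Detection was counted as well. It does not use the fit, but it comes from the same arrays and intensities, so it is not an independent test. Of the 11937 genes tested, all 3 knockout spleen arrays and no knockout marrow array detected 32, by the probe used for each, Itgad among them. All 3 knockout marrow arrays and no knockout spleen array detected 57 genes, likewise by the probe used, among them Cxcl12, Cd34, Il12a and Epx. How many genes would split so by chance was not tested.

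Fcgr3, the low-affinity receptor for immunoglobulin G, read 10.51, 10.73 and 10.51 in knockout spleen, against 9.67, 9.88 and 9.6 in knockout marrow, a difference of +0.87 without overlap. In wild type the difference was -0.10, and the gap between the genotypes was 0.96 (95% interval 0.12 to 1.81, limma adjusted p = 0.93).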
